A study of Mus musculus with 18 samples.

Results

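The genes described here encode the protein components of the cytosolic ribosome, namely the RefSeq protein-coding autosomal genes with the symbol Rpl or Rps followed by a number and at most one letter a, x or y, together with Rplp0, Rplp1, Rplp2 and Rpsa. The rule took 72 of the 20665 autosomal protein-coding genes, 29 of the small subunit, 40 of the large subunit and 3 of the ribosomal stalk. The study mapped acetylation of histone H3 at lysine 27 (H3K27ac) and trimethylation at lysine 4 (H3K4me3) by chromatin immunoprecipitation and sequencing in mouse embryonic stem cells of 3 genotypes, named Mettl3 Control, KO1 and KO2. The product of Mettl3 is the methyltransferase that places N6-methyladenosine on RNA, and KO1 and KO2 are Mettl3 knockout lines by their names. Each genotype and mark had 2 replicate libraries with a peak list each, 12 in all, and 6 samples of input chromatin were not analysed here. All cells, Control included, had a C57BL/6 background and were grown with LIF, CHIR99021 (an inhibitor of GSK3) and PD0325901 (an inhibitor of MEK), and were fixed with formaldehyde before precipitation in the presence of spike-in chromatin. The sources used here do not give how the lines were made or whether each is a single clone. The labels do not state separate cultures for the replicates, and p-values therefore cover only the spread of these libraries, possibly technical.

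The ribosome joins a small subunit, which reads the messenger RNA, to a large subunit, which forms the peptide bond, and the proteins of each are needed in matched amounts. Genes for these proteins are housekeeping genes: they are short, intron-containing and among the most strongly transcribed genes of dividing cells, and many carry small nucleolar RNA genes in their introns. Their transcripts classically begin at a C inside a run of pyrimidines, the 5′ terminal oligopyrimidine tract, which couples their translation to growth signalling. H3K27ac is found at promoters and enhancers in use and H3K4me3 at promoters, where both lie on the nucleosomes either side of the start site.

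The sequences round the annotated start of 10 members named in the results below are printed to show starts with and without a pyrimidine run. Each has 60 bases before the start base and 20 from it on, read 5′ to 3′ in the direction of the gene, from RefSeq on GRCm38.p6 (mm10). Capitals mark a run of at least 5 C or T that lies within 3 bases of the start, and sequences without capitals have no such run.
Rps15a (chr7:118116128-118116207, minus strand): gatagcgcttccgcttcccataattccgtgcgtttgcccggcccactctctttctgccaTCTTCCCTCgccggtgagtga
Rps24 (chr14:24490618-24490697, plus strand): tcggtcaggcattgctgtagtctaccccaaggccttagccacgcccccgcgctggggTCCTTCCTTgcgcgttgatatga
Rps6 (chr4:86857348-86857427, minus strand): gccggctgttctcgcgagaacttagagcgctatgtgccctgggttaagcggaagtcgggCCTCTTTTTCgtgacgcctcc
Rpl7a (chr2:26910747-26910826, plus strand): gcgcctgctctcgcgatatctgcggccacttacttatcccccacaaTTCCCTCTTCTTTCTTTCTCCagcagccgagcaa
Rpl13a (chr7:45128726-45128805, minus strand): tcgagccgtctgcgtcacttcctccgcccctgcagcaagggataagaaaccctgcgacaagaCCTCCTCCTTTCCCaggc
Rpl35 (chr2:39005112-39005191, minus strand): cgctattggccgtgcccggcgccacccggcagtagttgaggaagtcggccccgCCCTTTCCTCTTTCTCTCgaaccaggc
Rplp2 (chr7:141447591-141447670, plus strand): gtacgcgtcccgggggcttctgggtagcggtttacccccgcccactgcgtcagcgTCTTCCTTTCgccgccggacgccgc
Rps19 (chr7:24884532-24884611, plus strand): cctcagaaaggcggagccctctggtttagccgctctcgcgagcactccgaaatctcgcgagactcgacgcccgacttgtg
Rps25 (chr9:44407654-44407733, plus strand): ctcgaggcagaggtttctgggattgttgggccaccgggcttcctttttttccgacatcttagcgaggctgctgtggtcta
Rpl22 (chr4:152325666-152325745, plus strand): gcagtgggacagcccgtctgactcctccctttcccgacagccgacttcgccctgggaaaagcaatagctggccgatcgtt
Where a gene had several entries the first listed start was used. For Rpl22 that start lies inside the gene body of the same table and not at its end.

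RefSeq promoter entries were matched for 52 of the 72 members, and 45 of these started within 100 bp of the gene's 5′ end. A run of at least 8 C or T between 10 bases before and 15 after the start base was found in 19 of the 52 (36.5%), against 9.75% of all 16457 promoters of the table. The start base was C in 36.5% of members and 13.8% of all promoters. The letters CTTTC, the core of a pyrimidine tract, stood within 20 bases of the start on the gene's strand in 17 members (32.7%), against 5.17% of all promoters. Over the 300 bases of an entry and on both strands, CCGGAAG, a core recognised by ETS factors, was present in 40.4% of members and 12.3% of all promoters. AAGATGG, the core of the YY1 motif, was present in 15.4% and 6.42%. GGGCGG, the GC box, was present in 57.7% and 47.3%. TATAAA, the TATA box, was rarer in members (5.77%) than in all promoters (13.5%). These are matches of letters only, and CCGGAAG and AAGATGG can overlap by their shared AAG.

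The measure used below is the number of base pairs (bp) of the gene body extended by 2 kb on each side that lie under a peak of the mark. Members were short, with a median length of 3179 bp (982 to 11774) against 17491 bp for all genes, so their windows had a median of 7179 bp. The windows of 52 members reached into the extended body of another protein-coding gene. Among genes named below, bp outside every such neighbour numbered 1173 of 7230 for Rpl32 and 525 of 8153 for Rpl36. They numbered 290 of 7668 for Rps18, 724 of 7737 for Rpl35a, and 0 for Rps25 and Rpl7a. Peaks in such windows cannot be assigned to the member alone. A peak list holds no read counts, so the depth behind each length is unknown, and covered length can move with depth. In bulk chromatin a mark on more alleles and a stronger mark on each cannot be told apart. Exons of these genes have processed copies elsewhere in the genome, and how reads shared with the copies were placed was not tested.

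Mettl3, the targeted gene (chromosome 14, 52294841 to 52308741), kept peaks of both marks in every library. It had 2615 and 2886 bp of H3K4me3 in Control, 1516 and 1659 bp in KO1 and 1919 and 1764 bp in KO2. Both knockout lines were below Control without overlap (log2 difference −0.64, SE 0.11, limma adjusted p = 0.00873 in KO1; −0.47, SE 0.11, limma adjusted p = 0.0152 in KO2). Of all tested genes, 52.7% in KO1 and 51.0% in KO2 also lay below Control without overlap. The KO2 call was lost after quantile normalization (−0.30, limma adjusted p = 0.0824). H3K27ac of Mettl3 was 748 and 888 bp in Control, 837 and 793 bp in KO1 and 1278 and 1122 bp in KO2. Its KO2 difference was not called as deposited (0.37, SE 0.16, limma adjusted p = 0.052). It was called lower after quantile normalization (−0.61, limma adjusted p = 0.0217). A promoter can keep its marks when coding sequence is lost, so these lengths do not check the deletion. All 8 stem cell markers of a fixed list (Pou5f1, Sox2, Nanog, Esrrb, Zfp42, Klf4, Tfcp2l1 and Dppa5a) carried both marks in every library. The summed H3K27ac of the 6 feeder fibroblast markers was 0 bp in all 6 libraries, that of the 5 primitive endoderm markers 0 to 150 bp and that of the 4 trophectoderm markers 0 to 636 bp. Over the genome H3K27ac peaks covered 14.4 and 14.6 Mb in Control, 19.6 and 17.5 Mb in KO1 and 37.0 and 35.5 Mb in KO2. H3K4me3 peaks covered 58.2 and 56.4 Mb, 46.6 and 45.3 Mb, and 50.0 and 41.7 Mb.

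All 72 ribosomal protein genes carried a peak of both marks in all 12 libraries. Of all autosomal protein-coding genes, 42.1% to 59.1% had an H3K27ac peak in a given library and 68.4% to 70.2% an H3K4me3 peak. The median member had 1289 and 1265 bp of H3K27ac in the Control libraries, 1341 and 1273.5 bp in KO1, and 3001 and 2728.5 bp in KO2. The 4 libraries of Control and KO1 were thus alike in the median, and both KO2 libraries stood above them. The median member had 4511.5 and 4393 bp of H3K4me3 in Control, 4049.5 and 4032 bp in KO1, and 4123 and 3764.5 bp in KO2. Both knockout lines lay below both Control libraries in this median. Summed over the 72 genes, mean H3K27ac was 1.03 times Control in KO1 and 2.14 times in KO2, beside 1.28 and 2.501 times for the covered length of the whole genome. Summed H3K4me3 was 0.911 and 0.893 times Control, beside 0.802 and 0.801 times for the genome.

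**Figure D1:**
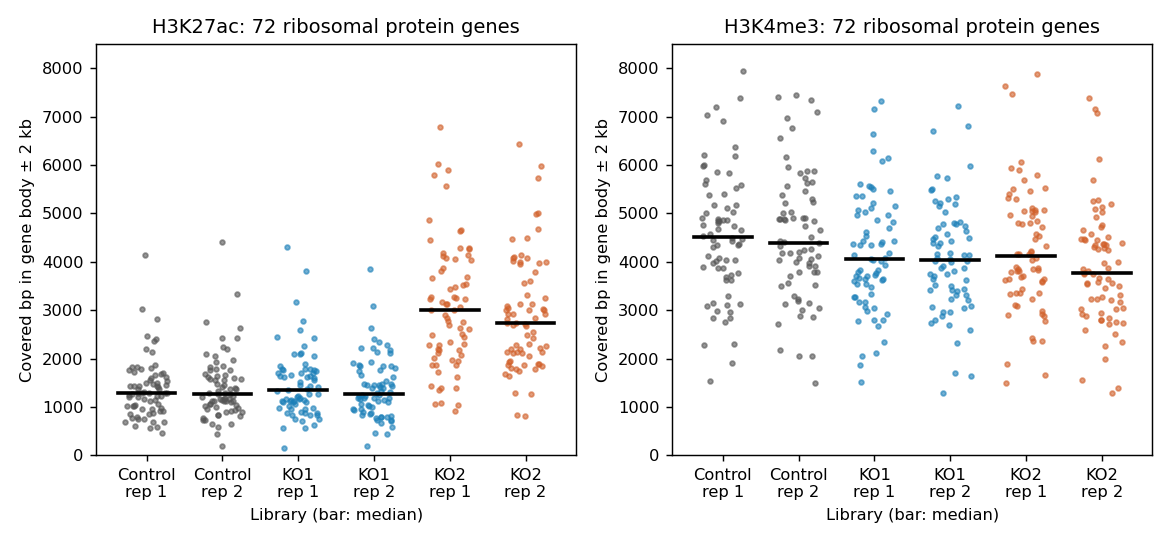
Base pairs under a peak of H3K27ac (left) and H3K4me3 (right) in the extended body of each of the 72 genes, by library as deposited; each point is a gene and each bar the median. The medians of H3K27ac are 3001 and 2728.5 bp in KO2 and between 1265 and 1341 bp in the other 4 libraries, an order that quantile normalization does not keep (median log2 difference of KO2 from Control −0.14 after it).

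The peaks of these genes were also high within their own lists. By the authors' fold enrichment of each peak over background, the highest H3K27ac peak of the median member stood above 94.6% to 97.0% of all peaks of its library, and the highest H3K4me3 peak above 99.2% to 99.6%. The median member had 2 H3K27ac peaks in every Control and KO1 library, and 5 and 4 in the KO2 libraries. The widest H3K27ac peak of the median member measured 924 and 907 bp in Control, 875.5 and 835.5 bp in KO1 and 1414.5 and 1324.5 bp in KO2. The widest H3K4me3 peak measured 3202.5 and 3324 bp in Control, 3029 and 2988.5 bp in KO1 and 2853 and 2604 bp in KO2. H3K4me3 thus formed broader blocks than H3K27ac by this median in every genotype.

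Relative to the start site, the acetylated block of Control cells lay on the first kb of the gene. In the 52 members with an annotated start, the median length of H3K27ac in the first kb downstream was 889.5 and 881 bp in Control, 856 and 814.5 bp in KO1 and 949 and 956 bp in KO2. In the second kb it was 23 and 4.5 bp, 0 and 34 bp, and 621 and 600 bp. The second kb was thus nearly bare in Control and KO1 and covered for the larger part in KO2 as deposited. The mean over members in the second kb was 152 and 149 bp in Control and 587 and 569 bp in KO2, and over the 6629 tested genes with a promoter entry it was 43.5 and 44.7 bp and 172 and 167 bp. In the 2 kb before the start the median was 250 and 219 bp in Control, 301 and 207 bp in KO1 and 574 and 645 bp in KO2. In Control, H3K27ac covered the start base itself in 6 and 5 of 52 members (11.5% and 9.62%). It did so in 7 and 9 members in KO1 (13.5% and 17.3%) and 8 in each KO2 library (15.4%). Any H3K27ac in the 2 kb before the start was found in 32 and 36 of the 52 members in Control. The numbers were 38 and 36 in KO1 and 43 and 46 in KO2. In Control an uncovered start thus did not always lie between an upstream and a downstream block, and members with both blocks were not counted. Of the 6629 tested genes with a promoter entry, the Control lists covered the start base in 13.2% to 15.6%. The KO1 lists covered it in 19.8% to 20.1%, the KO2 lists in 34.0% to 34.6%. Members thus lay below tested genes in every library, by most in KO2, with no test made. H3K4me3 covered the start base in 29 and 28, 33 and 35, and 24 and 24 members.

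**Figure D2:**
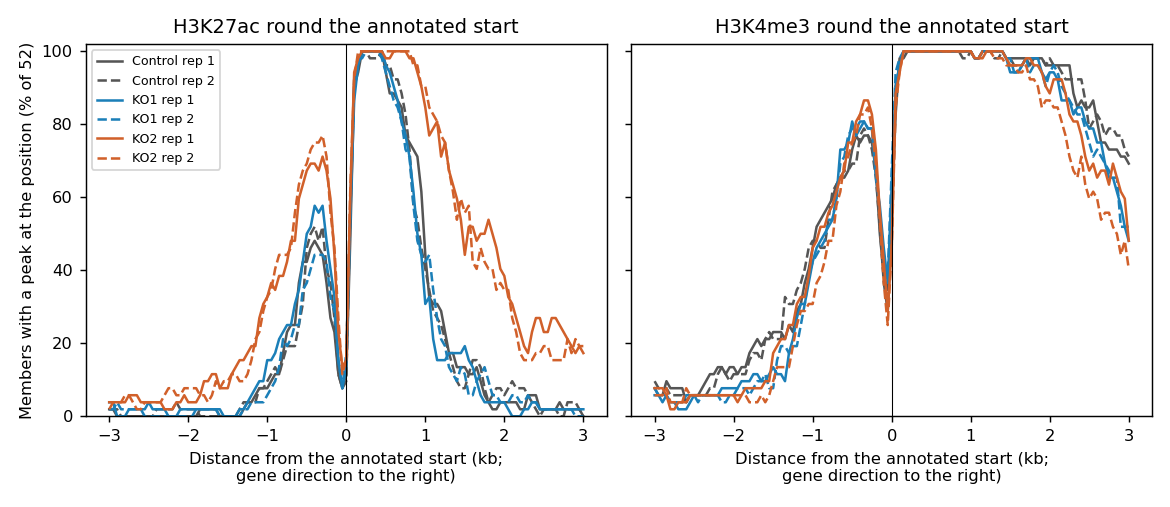
Share of the 52 members with an annotated start that have a peak of H3K27ac (left) or H3K4me3 (right) at each position from 3 kb before to 3 kb after the start, in steps of 50 bp; each line is a library. At 1.5 kb downstream 44.2% and 55.8% of members had H3K27ac in KO2 as deposited, against 7.69% to 19.2% in the Control and KO1 libraries; lines were not normalized between libraries.

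In Control, H3K27ac of these genes lay almost wholly inside H3K4me3, and in KO2 it filled more of it. Counting bases covered in both replicates, 99.7% of the H3K27ac bases of Control were also H3K4me3 bases, 98.2% in KO1 and 91.0% in KO2. Of the H3K4me3 bases, 27.7% carried H3K27ac in Control, 30.5% in KO1 and 60.9% in KO2. Almost all acetylated bases of Control stayed under a peak in KO2 (99.0%), and 85.2% did so in KO1. Of the H3K4me3 bases of Control, 87.1% stayed under a peak in KO1 and 83.1% in KO2. Across the 72 genes the lengths of both marks were related with r = 0.429 (Spearman rho 0.41) in Control and 0.778 (0.734) in KO2. These correlations describe genes within the same libraries whose windows differ in length, and genes are not independent replicates.

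Covered lengths were compared with limma on log2(bp + 500) over every gene with a mean of at least 500 bp in the 6 libraries of a mark, and a gene was called at a Benjamini-Hochberg adjusted p under 0.05 over all genes tested. All 72 members entered both fits, of 8228 genes for H3K27ac and 12838 for H3K4me3. H3K27ac rose in KO2 over Control in 68 of the 72 members and fell in none as deposited, whereas after quantile normalization 1 member rose and 9 fell. Of all tested genes 89.2% were called higher and 0.255% lower (14.6% and 14.2% after quantile normalization), so the members' share was near the background. Their median log2 difference was 0.83 beside 0.93 for all tested genes, and their mean length in KO2 was 1.16 to 4.98 times that in Control. All 72 had both KO2 libraries above both Control libraries, as did 96.9% of tested genes, and none had both below (0.559% of tested genes). By subunit the calls were 29 of 29 small-subunit, 36 of 40 large-subunit and 3 of 3 stalk genes. Without each of the 6 libraries in turn, the median log2 difference of the members tested was 0.82 to 0.88, beside 0.89 to 0.95 for all tested genes.

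KO2 was also compared with KO1, which shares the KO2 libraries with the comparison above. H3K27ac was called higher in KO2 than in KO1 in 64 members and lower in none as deposited, against 76.5% and 0.28% of tested genes. After quantile normalization 2 members were higher and 2 lower, beside 7.07% and 6.38% of tested genes. As deposited, the median log2 difference was 0.84 beside 0.71 for all tested genes. All 72 members had both KO2 libraries above both KO1 libraries, as did 93.1% of tested genes. Rps15, Rps23, Rps29, Rpl8, Rpl10a, Rpl29 and Rpl41 were among the 8 members without a call here.

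KO1 was then compared with Control. No member was called for H3K27ac in either direction by limma (5 higher and 2 lower at an unadjusted p under 0.05), against 11.6% of all tested genes called higher and 0.596% lower. At that unadjusted threshold 2131 of the 8228 tested genes were higher and 173 lower. The members' median log2 difference was 0.02 beside 0.20 for all tested genes, and −0.20 beside −0.02 after quantile normalization. Both KO1 libraries lay above both Control libraries in 10 members (46.2% of tested genes) and below them in 15 (7.75% of tested genes).

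**Figure D3:**
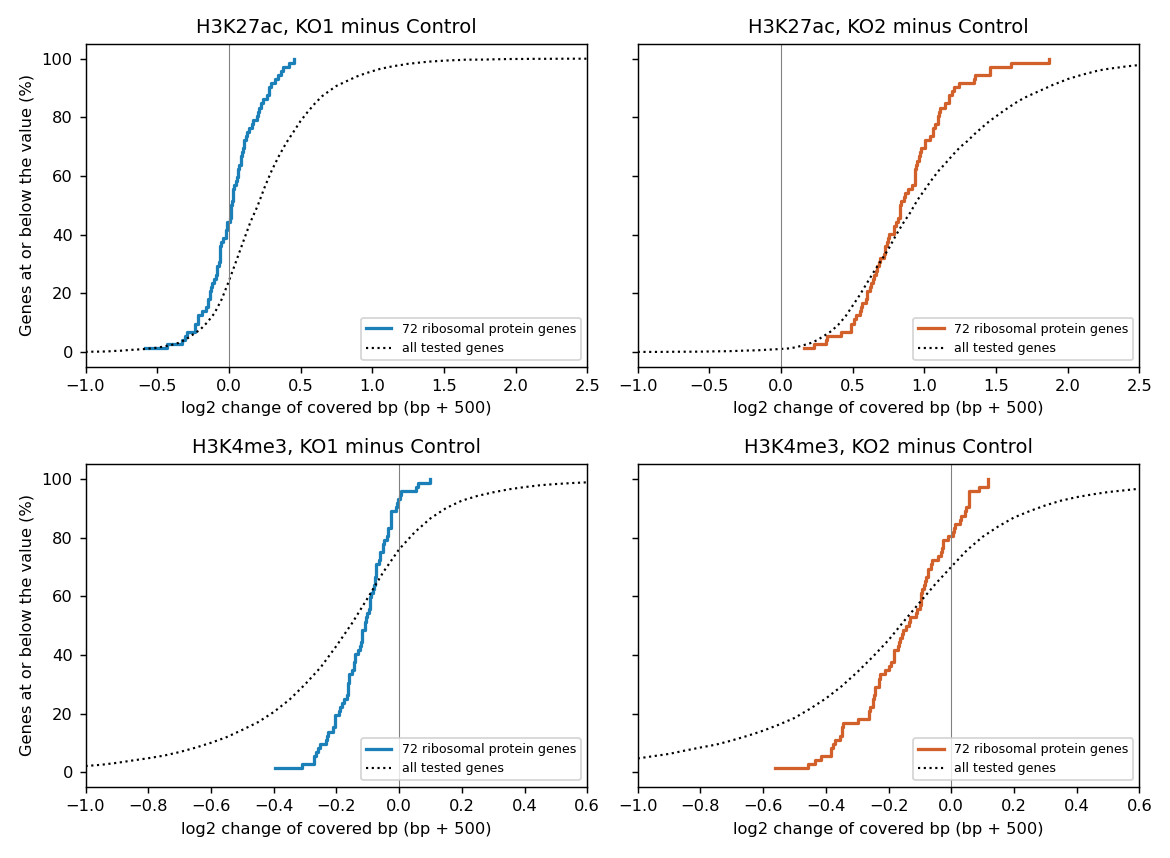
Cumulative distribution of the log2 difference of covered bp (bp + 500) from Control over the 72 ribosomal protein genes (solid) and all tested genes (dotted), for each mark and line as deposited. The median of the members is 0.02 (H3K27ac) and −0.11 (H3K4me3) in KO1 and 0.83 and −0.14 in KO2; after quantile normalization these are −0.20, 0.16, −0.14 and 0.18, so all 4 take the opposite sign.

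Among small-subunit genes, Rps15a had the largest H3K27ac difference of all 72 in KO2. Rps15a (chromosome 7, 118104374 to 118116147), whose start carries the pyrimidine run printed above, is the longest of the genes, with H3K27ac of 679 and 1203 bp in Control, 1097 and 1034 bp in KO1 and 4869 and 4499 bp in KO2. The KO2 libraries stood 4.98 times above Control in the mean with no overlap, while KO1 lay within the Control range (KO2 log2 difference 1.87, SE 0.19, limma adjusted p = 6.70e-05). Control lists held 2 and 5 H3K27ac peaks in its window, KO1 lists 3 and 4, and KO2 lists 11 and 14. Its H3K4me3 was among the 3 highest in Control at 6908 and 7411 bp, and was 6645 and 6697 bp in KO1 and 7884 and 7069 bp in KO2, where it overlapped Control. Rps15a was also the 1 member called higher for H3K27ac in KO2 over Control after quantile normalization (0.85, limma adjusted p = 0.013).

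Rps19, whose mutation is the most frequent cause of Diamond-Blackfan anaemia, a failure of red cell production, had 1432 and 2237 bp of H3K27ac in Control. It had 1850 and 1458 bp in KO1 and 5902 and 5736 bp in KO2. KO1 lay inside the Control range and KO2 far above it (log2 difference 1.46, SE 0.19, limma adjusted p = 0.000191). H3K4me3 of Rps19 stayed between 4826 and 5308 bp in all 6 libraries. In contrast to Rps15a, its start has no pyrimidine run near the annotated base.

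Rps25, needed for translation from several viral internal entry sites, had 745 and 839 bp of H3K27ac in Control, 1172 and 1186 bp in KO1 and 2763 and 2830 bp in KO2. The 3 genotypes did not overlap, but the KO1 difference was not called (0.38, SE 0.14, limma adjusted p = 0.119; KO2 1.35, SE 0.14, limma adjusted p = 7.61e-05). Rps25 also had the largest positive H3K4me3 difference in KO2, with 3983 and 4116 bp in Control and 4522 and 4348 bp in KO2 (0.12, SE 0.10, limma adjusted p = 0.442), a difference called only after quantile normalization (0.47, limma adjusted p = 0.0117). The Rps25 window lay wholly within the extended bodies of neighbouring genes. Rps3, which lines the entry of the mRNA channel, had 1147 and 1161 bp of H3K27ac in Control, 1347 and 1006 bp in KO1 and 4134 and 3303 bp in KO2. Its rise in KO2 was 1.34 (SE 0.17, limma adjusted p = 0.000165).

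Rpsa, which also serves as the laminin receptor precursor, had 1682 and 1783 bp of H3K27ac in Control, 1695 and 2210 bp in KO1 and 4458 and 3951 bp in KO2. Rps6, the substrate of S6 kinase, had a smaller rise, from 952 and 1137 bp in Control to 1873 and 1885 bp in KO2. Both KO1 libraries of Rps6, at 870 and 784 bp, lay below Control. The KO2 calls were 1.07 for Rpsa (SE 0.15, limma adjusted p = 0.000306) and 0.63 for Rps6 (SE 0.15, limma adjusted p = 0.0043). Rps23, of the decoding centre, stood higher in KO1 as well, without a call, at 1826 and 1935 bp in Control, 2770 and 2285 bp in KO1 and 3160 and 3003 bp in KO2. It rose in KO2 over Control (0.59, SE 0.14, limma adjusted p = 0.00403), and its difference between the knockout lines was 0.25 (SE 0.14, limma adjusted p = 0.128). After quantile normalization Rps23 was called lower in KO2 than in Control (−0.42, limma adjusted p = 0.0356) and than in KO1 (−0.57, limma adjusted p = 0.024). Rps29, a small zinc-finger protein, had the least H3K27ac of all members in Control, at 455 and 188 bp, with 563 and 430 bp in KO1 and 1074 and 821 bp in KO2.

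The genes whose mutations cause Diamond-Blackfan anaemia formed a list of 10 members (among them Rps7, Rps10, Rps19, Rps24, Rps26, Rpl5, Rpl11, Rpl26 and Rpl35a). All 10 rose for H3K27ac in KO2 as deposited, with a median log2 difference of 0.88, and none was called in KO1, beside 89.2% of all tested genes called higher in KO2 and 11.6% in KO1. Under quantile normalization Rps7, Rps10, Rps24, Rps26, Rpl11 and Rpl26 changed sign with no call. Rps10 had the widest spread between replicates of these, with 1018 and 722 bp in Control, 1366 and 668 bp in KO1 and 2483 and 1629 bp in KO2 (0.89, SE 0.26, limma adjusted p = 0.011). Rps7 had 1367 and 1119 bp, 1147 and 1387 bp, and 1953 and 2196 bp in the same order, and Rps26 1058 and 805 bp, 1097 and 885 bp, and 1397 and 1803 bp. KO2 was above the other genotypes in each of the 10, and Rps26 showed the smallest rise (0.55, SE 0.18, limma adjusted p = 0.0169).

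Among large-subunit genes, Rpl32, often used as a reference transcript, had 1195 and 1647 bp of H3K27ac in Control, 1776 and 2350 bp in KO1 and 6013 and 4681 bp in KO2. The 3 genotypes did not overlap, and the KO1 difference (0.42, SE 0.19, limma adjusted p = 0.189) was not called while the KO2 difference was (1.61, SE 0.19, limma adjusted p = 0.000128). Rpl36 had 963 and 1172 bp in Control, 1267 and 1532 bp in KO1 and 4058 and 3562 bp in KO2 (1.46, SE 0.15, limma adjusted p = 8.15e-05). Again the order was Control, KO1, KO2 without overlap. Few bases of either window lay outside the extended bodies of neighbouring genes, so these peaks cannot be assigned to Rpl32 or Rpl36 alone. H3K4me3 of both genes overlapped between Control and KO2, at 4865 to 5519 bp in Control and 4756 to 4962 bp in KO2 for Rpl32 and at 4674 and 4906 bp and 5069 and 4453 bp for Rpl36.

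Rpl5 and Rpl11 carry the 5S ribosomal RNA into the large subunit and bind Mdm2, the inhibitor of p53, when ribosome assembly fails. Rpl5 had 1462 and 1444 bp of H3K27ac in Control, 1764 and 2121 bp in KO1 and 4033 and 3779 bp in KO2 (1.17, SE 0.14, limma adjusted p = 0.000134). Rpl11 had 757 and 899 bp, 753 and 877 bp, and 1977 and 1847 bp (0.86, SE 0.15, limma adjusted p = 0.000991). In KO1 both Rpl5 libraries lay above Control while those of Rpl11 overlapped it, neither difference was called, and both genes were higher in KO2. Rpl11 had the second-lowest H3K4me3 difference in KO1, from 4042 and 3780 bp in Control to 3164 and 2953 bp (−0.31, SE 0.14, limma adjusted p = 0.162).

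Rpl13a, known for its role in interferon-dependent silencing of inflammatory mRNAs, had the most H3K27ac of all members in Control and was near the top in every library. It had 4142 and 4408 bp in Control, 4302 and 3849 bp in KO1 and 5797 and 5971 bp in KO2 (0.42, SE 0.12, limma adjusted p = 0.00928). Its window holds bases of 2 neighbouring genes, and only 2793 of 7183 bp belong to no neighbour. The Rpl13a call turned to a fall after quantile normalization (−0.67, limma adjusted p = 0.00491). Rpl23, another Mdm2-binding protein, had the second-highest mean H3K27ac of all members in Control, at 3026 and 3337 bp in Control, 3817 and 3092 bp in KO1 and 6784 and 6433 bp in KO2. Rpl19, Rps18 and Rpl35a rose in KO2 by 1.11, 0.82 and 1.00 on the log2 scale, with limma adjusted p-values of 0.000599, 0.0014 and 0.000805. Rpl23, Rpl19, Rpl38, Rpl26 and Rpl27 lie on chromosome 11, Rpl13 on 8, Rps6 and Rpl11 on 4 and Rps7 on 12, chromosomes also set apart in an alternative. Rpl38, whose loss alters translation of Hox mRNAs and the axial skeleton, rose by 1.06 (limma adjusted p = 0.000438).

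The 4 genes without an H3K27ac call in KO2 were all of the large subunit. Rpl3, of the peptidyl transferase region, had 2819 and 2760 bp in Control, 2268 and 2411 bp in KO1 and 4119 and 3127 bp in KO2 (0.32, SE 0.15, limma adjusted p = 0.072). Rpl8, which lies close to the same site, had 1011 and 1124 bp, 982 and 1059 bp, and 1397 and 1282 bp (0.23, SE 0.15, limma adjusted p = 0.162). Both KO2 libraries exceeded both Control libraries in each, by less than the test requires. Rpl29, also described as a heparin-binding protein, had 596 and 593 bp, 627 and 588 bp, and 909 and 826 bp (0.32, SE 0.16, limma adjusted p = 0.0923). All 4 were called lower after quantile normalization.

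The stalk proteins recruit the elongation factors to the ribosome, Rplp0 as the base and Rplp1 and Rplp2 as its arms. Rplp0 had 792 and 1091 bp of H3K27ac in Control, 987 and 842 bp in KO1 and 2281 and 2126 bp in KO2 (0.91, SE 0.16, limma adjusted p = 0.00102). Rplp2 had 1283 and 1564 bp, 1260 and 1413 bp, and 2768 and 3054 bp (0.83, SE 0.15, limma adjusted p = 0.001). KO1 overlapped Control in both. Rplp1 had the lowest KO1 difference of all members, with 586 and 433 bp in Control, 150 and 191 bp in KO1 and 1062 and 1259 bp in KO2. KO1 lay below and KO2 above Control without overlap (KO1 −0.59, SE 0.19, limma adjusted p = 0.081; KO2 0.72, SE 0.19, limma adjusted p = 0.00688). The difference between the lines was 1.31 (SE 0.19, limma adjusted p = 0.000683). All 3 stalk genes lost the KO2 call and changed sign after quantile normalization.

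**Figure D4:**
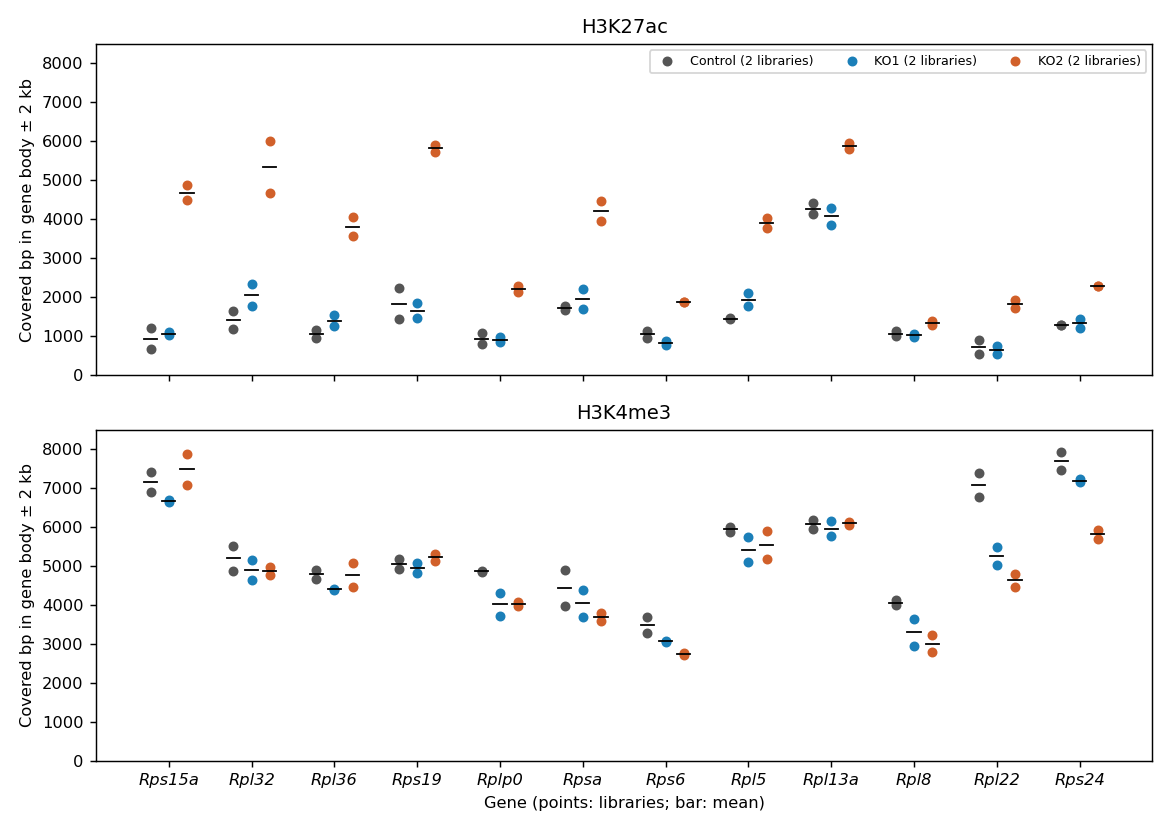
Base pairs of H3K27ac (top) and H3K4me3 (bottom) in the extended body of 12 named genes, as deposited; points are libraries, 2 for each genotype, and bars their means. KO2 stands above the other genotypes for H3K27ac, from 5736 and 5902 bp in Rps19 to 1397 and 1282 bp in Rpl8; after quantile normalization Rplp0, Rps6, Rpl13a, Rpl8, Rpl22 and Rps24 have the opposite sign, and Rpl5, Rpl32, Rplp0, Rpsa and Rps24 are among those that do so for H3K4me3.

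In KO1 the members parted in both directions for H3K27ac, none of them called. The largest positive differences from Control were in Rpl24, which bridges the subunits (0.46, SE 0.14, limma adjusted p = 0.0663), Rpl32, Rps25 and Rpl41, the smallest ribosomal protein (0.36, SE 0.15, limma adjusted p = 0.155). Rpl24 had 1283 and 1323 bp in Control, 2098 and 1854 bp in KO1 and 2615 and 2822 bp in KO2, an order without overlap. Rpl41 had 1168 and 1118 bp, 1432 and 1809 bp, and 2197 and 2227 bp. The largest negative differences were in Rplp1, in Rpl17 of the peptide exit tunnel (−0.43, SE 0.24, limma adjusted p = 0.294), in Rps16, whose tail reaches the P site (−0.32, SE 0.17, limma adjusted p = 0.256), and in Rpl13 (−0.31, SE 0.13, limma adjusted p = 0.17). Rps16 had 919 and 1182 bp in Control, 747 and 721 bp in KO1 and 2847 and 2198 bp in KO2. Rpl13 had 2137 and 1975 bp, 1647 and 1483 bp, and 3485 and 3596 bp. In both, KO1 lay below and KO2 above Control without overlap, as in 15 members in all (6.82% of tested genes). The same order was found for H3K4me3 in 1 member, Rpl28 (2.34% of tested genes). The 10 members with both KO1 libraries above Control were Rps2, Rps23, Rps25, Rpl4, Rpl5, Rpl24, Rpl32, Rpl36, Rpl38 and Rpl41.

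H3K4me3 fell at few of these genes. In KO2, 7 members were called lower than Control and none higher by limma (15 lower and none higher at an unadjusted p under 0.05), against 24.0% lower and 4.53% higher of all tested genes. At that unadjusted threshold 4283 of the 12838 tested genes were lower and 930 higher. After quantile normalization the direction turned, with 17 members higher, Rps15a, Rps19, Rps25, Rpl3, Rpl5, Rpl13a, Rpl23, Rpl27 and Rpl36 among them, and none lower, beside 12.2% higher and 11.1% lower of all tested genes. The members' median log2 difference was −0.14 beside −0.16 for all tested genes as deposited, and 0.18 beside −0.0017 after quantile normalization. Both KO2 libraries lay below both Control libraries in 43 members (51.0% of tested genes) and above them in 5 (15.0%). The count of 7 rests on single libraries: it was 0 and 1 without Control replicates 1 and 2, 3 without either KO1 replicate, and 13 and 1 without KO2 replicates 1 and 2. KO2 replicate 2 had less H3K4me3 than replicate 1 in 64 of the 72 members, and its part in these calls beyond the values given was not tested.

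Between KO1 and Control, 1 member was called lower for H3K4me3 and none higher by limma (2 lower and none higher at an unadjusted p under 0.05), against 14.4% lower and 1.32% higher of tested genes. At that unadjusted threshold 3549 of the 12838 tested genes were lower and 431 higher. The median log2 difference was −0.11 beside −0.16 for all tested genes, and 0.16 beside 0.02 after quantile normalization, when no member was called. Both KO1 libraries lay below Control in 47 members (52.7% of tested genes) and above it in 1 (10.1%), Rps23. Among the members with the largest positive H3K4me3 differences were Rpl26 and Rpl10a in KO1 and Rpl27 in KO2. Rpl26, which promotes translation of p53 mRNA, had 3148 and 3152 bp in Control, 3541 and 3058 bp in KO1 and 3114 and 2884 bp in KO2 (KO1 0.05, SE 0.11, limma adjusted p = 0.779). Rpl27 had 2842 and 3046 bp in Control, 2803 and 2796 bp in KO1 and 3441 and 3034 bp in KO2 (KO2 0.12, SE 0.11, limma adjusted p = 0.466; 0.37, limma adjusted p = 0.0274 after quantile normalization). Rpl10a had 2967 and 3511 bp, 3177 and 3320 bp, and 3094 and 2581 bp. Libraries of the genotypes overlapped in each of these differences. Between the knockout lines no member was called by limma (2 lower in KO2 and none higher at an unadjusted p under 0.05), against 3.02% higher and 2.45% lower of tested genes. Both KO2 libraries were above both KO1 libraries in 11 members (22.7% of tested genes) and below them in 15 (26.7%).

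Rpl22, an RNA-binding large-subunit protein required for T cell development, was the member called for H3K4me3 in both lines. It had 7394 and 6769 bp in Control, 5034 and 5483 bp in KO1 and 4803 and 4459 bp in KO2, each genotype apart from the next (KO1 −0.40, SE 0.11, limma adjusted p = 0.0475; KO2 −0.56, SE 0.11, limma adjusted p = 0.00812). The KO1 call was lost without any one of the 4 Control and KO1 libraries. H3K27ac of Rpl22 rose in the same KO2 cells, from 554 and 909 bp in Control to 1715 and 1940 bp, with 555 and 738 bp in KO1 (KO2 0.93, SE 0.19, limma adjusted p = 0.00202). No other protein-coding gene's extended body reaches into the Rpl22 window.

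Rps24, of the small subunit, had the most H3K4me3 of all members in Control, at 7936 and 7455 bp, with 7153 and 7220 bp in KO1 and 5934 and 5685 bp in KO2. KO1 and KO2 both lay below Control without overlap, and the KO2 difference was called (−0.38, SE 0.11, limma adjusted p = 0.0312). Rps29 had 2306 and 2052 bp in Control, 2045 and 1701 bp in KO1 and 1503 and 1397 bp in KO2 (−0.46, SE 0.12, limma adjusted p = 0.0246). In both genes KO1 lay between Control and KO2 in the mean. Rpl23a and Rpl35, both at the peptide exit tunnel, and Rpl7a were called as well. Rpl23a had 5824 and 5836 bp in Control and 4479 and 4467 bp in KO2 (−0.35, SE 0.11, limma adjusted p = 0.042). Rpl35 had 5037 and 5555 bp and 4163 and 3801 bp (−0.37, SE 0.11, limma adjusted p = 0.0374), and Rpl7a 4833 and 5028 bp and 3779 and 3753 bp (−0.35, SE 0.10, limma adjusted p = 0.0355). Rpl22 lies on chromosome 4, Rpl23a on 11 and Rps29 on 12. The copy number of these chromosomes in the lines was not measured here, and with the genes of chromosomes 4, 8, 11 and 12 left out of the fit 3 of the 56 remaining members were called lower. The Rpl35 difference was 0.04 once bases of neighbouring genes were left out of its window.

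In 6 members the marks were called in opposite directions in KO2 as deposited, H3K27ac higher and H3K4me3 lower: Rps24, Rps29, Rpl7a, Rpl22, Rpl23a and Rpl35. This combination was found in 28.2% of the 8185 genes tested for both marks. No member was called in the reverse combination. Rpl7a had 1132 and 1475 bp of H3K27ac in Control and 2627 and 1859 bp in KO2 (0.60, SE 0.18, limma adjusted p = 0.0133), and Rpl35 had 1318 and 1282 bp and 2120 and 2046 bp (0.52, SE 0.14, limma adjusted p = 0.0068). Rpl23a had 1232 and 1574 bp and 3813 and 4145 bp (1.24, SE 0.21, limma adjusted p = 0.000879), and Rps24 1290 and 1278 bp and 2282 and 2297 bp (0.64, SE 0.14, limma adjusted p = 0.00287). KO2 exceeded Control without overlap in each. The Rpl7a window lay wholly within the extended bodies of neighbouring genes. After quantile normalization none of the 6 held this combination of calls.

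**Figure D5:**
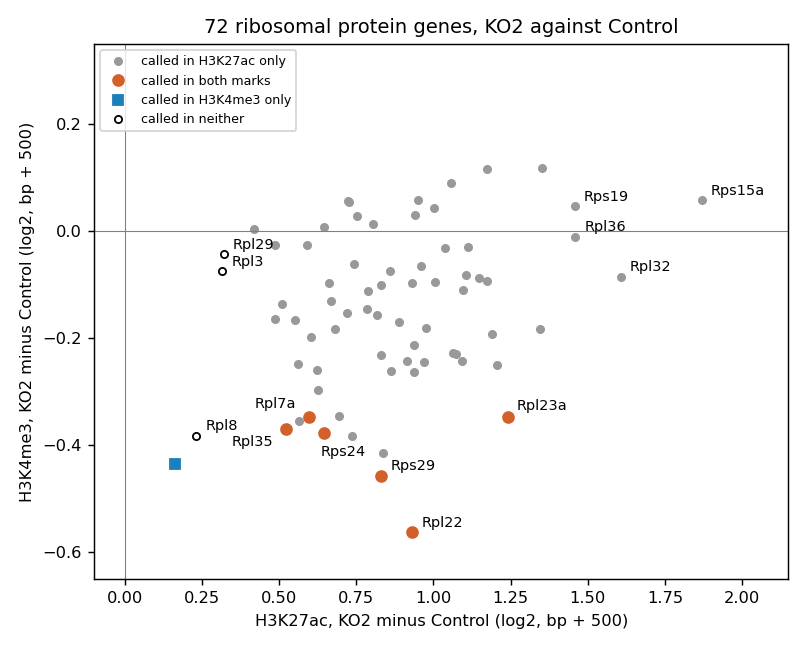
Log2 difference of covered bp (bp + 500) of KO2 from Control for H3K27ac (x) and H3K4me3 (y) in each of the 72 genes as deposited, coloured by the limma calls. All 72 points lie right of 0 for H3K27ac and 58 lie below 0 for H3K4me3; after quantile normalization 21 lie right of 0 and 9 below.

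Members were also grouped by features they hold in common. A small nucleolar RNA gene lay inside 27 members, 56 such genes in all. H3K27ac rose in KO2 in 25 of these 27 (median log2 difference 0.94) and in 43 of the 45 without one (0.83), beside 89.2% of all tested genes, and H3K4me3 fell in 3 and 4, beside 24.0%. The 17 members with CTTTC near the start had a median H3K27ac difference of 0.89 and the 35 without it 0.83, and all 52 were called higher. The 20 members whose window meets no neighbour had a median of 0.83, with 19 called, and the 52 with a neighbour 0.85, with 49 called. With the bases of neighbouring genes left out, 54 members could be tested for H3K27ac, of which 46 rose in KO2 (median 0.74). Of all 5947 genes tested in that way, 86.9% were called higher (median 0.97). After quantile normalization each of these groups had a median H3K27ac difference below 0, from −0.13 to −0.16. In each group 0 or 1 member was called higher and 2 to 6 lower, beside 14.6% and 14.2% of all tested genes. H3K4me3 was then called higher in 10 of the 27 members with a small nucleolar RNA gene and 7 of the 45 without. It was called higher in 5 of the 17 with CTTTC and 5 of the 35 without it, and lower in none of them. Of all tested genes 12.2% were called higher and 11.1% lower for H3K4me3. No test between the groups was made.

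Genes of related pathways were read from lists in the same fits, first as deposited. Of the 78 mitochondrial ribosomal protein genes, which serve a separate ribosome, 57 had enough H3K27ac to be tested, and 51 of them rose in KO2 (median 0.66), or 89.5%, beside 89.2% of all tested genes (median 0.93). H3K4me3 fell in KO2 in 24 of the 78 (median −0.26), or 30.8%, beside 24.0% of all tested genes. For translation initiation and elongation factors H3K27ac rose in 27 of 32 (84.4%, median 0.74) and H3K4me3 fell in 14 of 33 (42.4%, median −0.34). For ribosome biogenesis genes H3K27ac rose in 30 of 33 (90.9%, median 0.73) and H3K4me3 fell in 13 of 37 (35.1%, median −0.27). The H3K27ac shares of these lists lay near the background, the H3K4me3 shares above it, and neither difference was tested. The remaining cytosolic ribosomal protein genes on autosomes with other symbols, 4 in number, all rose for H3K27ac in KO2, Rps3a1, Fau and Rack1 by 1.23, 0.58 and 0.93 on the log2 scale, with limma adjusted p-values of 0.000142, 0.013 and 0.000255. After quantile normalization the H3K27ac median of each of the 4 lists lay below 0 in KO2, at −0.32 for mitochondrial ribosomal proteins (1 higher, 11 lower), −0.29 for factors (2 and 9), −0.24 for biogenesis genes (0 and 6) and −0.21 for the 4 remaining genes (none called). The H3K4me3 median was then −0.09 for mitochondrial ribosomal proteins (3 higher, 7 lower), 0.07 for factors (7 and 6) and −0.01 for biogenesis genes (5 and 2). It was 0.21 for the 4 remaining genes (none called) and 0.18 for the 72 members (17 higher and 0 lower). The 8 stem cell markers stood at 0.47 (7 higher and 0 lower), so a higher H3K4me3 after this normalization was not particular to the members. Of all tested genes 12.2% were called higher and 11.1% lower. In KO1, 3 of 33 ribosome biogenesis genes (9.09%, beside 11.6% of all tested genes) were called higher for H3K27ac and no gene of the other lists by limma. At an unadjusted p under 0.05 by limma, 5 of 33 biogenesis, 8 of 57 mitochondrial, 3 of 32 factor and 0 of 4 remaining cytosolic genes were higher. At that threshold 2131 of all 8228 tested genes were higher.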

How the data were processed

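CASAVA, Trimmomatic 0.38, Bowtie 1.2.2 and MACS2 (no version found), with build mm10, are named per the submitters' processing notes. The authors deposited a peak list per library, 12 lists, in which each peak has a score, a fold enrichment (a ratio), and a −log10 p and −log10 q value. The sources used here do not give the use of input or spike-in for these lists. The score was not used, and fold and −log10 p were used only within a list.

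Genes, starts, ends and promoter sequences came from RefSeq tables on GRCm38.p6, the assembly of mm10. For each of 20665 autosomal protein-coding genes the bp under peaks were summed over the body extended by 2 kb, with no normalization between libraries. Log2(bp + 500) was fitted with limma 3.58.1 (R 4.3.3; lmFit, contrasts, eBayes with a trend) over the 6 libraries of a mark for genes averaging 500 bp or more, and adjusted by Benjamini-Hochberg over all genes tested; a pseudocount of 500 bp understates changes of short lengths. The procedure was tested on simulated data. Named genes were the 4 largest rises and falls per mark and line, the 3 highest and lowest in Control, members of set roles, and those called in opposite directions; Rps2, Rps15, Rpl4 and members named only in a list of counted genes were added after their values were seen. A few genes are counted but not reported here by name. The members and lists were chosen with earlier results of these data known. Alternatives were quantile normalization, pseudocounts of 100 and 2000 bp, other extensions, peak thresholds, list lengths, filters, a replicate block and left-out libraries or chromosomes.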

Additional observations from a re-analysis of the deposited data

Results flagged for a closer look

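The knockout lines differed from each other in H3K27ac, tested as the difference KO2 minus KO1, in 64 of the 72 ribosomal protein genes as deposited (limma adjusted p under 0.05; 76.5% of all tested genes), all of them higher in KO2. After quantile normalization 2 were called higher and 2 lower, beside 7.07% and 6.38% of all tested genes. In 15 members (6.82% of all tested genes had this order) the lines also moved to opposite sides of Control for H3K27ac, with both KO1 libraries below and both KO2 libraries above both Control libraries, among them Rps6, Rps14, Rps16, Rps20, Rps27, Rps28, Rpl3, Rpl7a, Rpl13, Rpl28, Rpl31, Rpl35 and Rplp1. The difference between the lines was called in 14 of these. They were picked by this same order of the libraries, so that count is no separate support. The opposite order itself was not tested. For H3K4me3, 1 member showed the same order (2.34% of tested genes), Rpl28, with 3625 and 3556 bp in Control, 3327 and 3213 bp in KO1 and 3685 and 3653 bp in KO2; its difference between the lines was 0.15 (limma adjusted p = 0.488).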

How the results depend on the processing

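All 72 members kept a peak of each mark in every library at −log10 q of at least 5. Of 240 counts recomputed under an alternative, 209 equalled the main count or stayed within 1.5 times of it, and 31 did not. Most of the 12 main counts were 0, and 0 against 0 was taken as equal. The 209 therefore do not measure how stable the calls were. Quantile normalization accounts for the largest moves. H3K27ac was then higher in KO2 than Control in 1 member and lower in 9, beside 14.6% and 14.2% of all tested genes. Against KO1 it was higher in 2 and lower in 2, beside 7.07% and 6.38%. H3K4me3 was higher in KO2 than Control in 17 and lower in 0, beside 12.2% and 11.1%. It was lower in KO1 than Control in 0 (5.56%) and higher in KO2 than KO1 in 1 (6.43%) under quantile normalization. Under it H3K27ac of KO2 minus Control took the opposite sign in Rpl8 (−0.73), Rpl3 (−0.72), Rpl13a (−0.67), Rpl29 (−0.65), Rpl35 (−0.45), Rps23 (−0.42; −0.57 for KO2 minus KO1), Rps26 (−0.41), Rps7 (−0.40), Rpl7a (−0.38), Rps6 (−0.33), Rps24 (−0.32), Rplp1 (−0.26), Rpl26 (−0.22), Rps18 (−0.17), Rps29 (−0.16), Rplp2 (−0.16), Rpl23 (−0.13), Rpl11 (−0.11), Rps10 (−0.081), Rplp0 (−0.049) and Rpl22 (−0.040), and H3K4me3 in Rpl5 (0.35), Rps24 (0.12), Rpl23a (0.059) and Rpl7a (0.0094). With bases of neighbouring genes left out, an alternative chosen after seeing the data, H3K4me3 of Rpl35 was 0.037. The cause was not tested. H3K4me3 calls lower in KO2 numbered 12 on percent of the window, 4 with an extension of 1 kb, 3 without chromosomes 4, 8, 11 and 12 (56 members left), 3 with only the compared genotypes, and 0 to 13 without each library in turn. H3K4me3 calls lower in KO1 numbered 2 on percent of the window, 3 with an extension of 5 kb, and 0 with a pseudocount of 100 bp, no filter, an extension of 1 kb, −log10 q of at least 5, no trend in the variance, without those chromosomes, and 0 to 1 without each library. H3K27ac calls higher in KO1 numbered 1 with an extension of 5 kb. Equal numbers of peaks per list left 49 H3K27ac calls higher in KO2 than Control among 70 members tested, beside 69.9% of all tested genes. For H3K4me3 lower in KO2, all tested genes gave 23.5% on percent of the window and 22.5% with an extension of 1 kb. They gave 22.9% without those chromosomes and 20.1% with only the compared genotypes. For H3K4me3 lower in KO1 they gave 16.0% on percent of the window and 15.8% at 5 kb, and for H3K27ac higher in KO1 12.6% at 5 kb. Same-numbered replicates did not deviate together gene by gene (r −0.015 to 0.028). A shift common to all genes does not enter r, so whether equal numbers mark a shared culture or day was not settled. With the replicate block 68 members were called higher for H3K27ac in KO2 than Control and 66 in KO2 than KO1. The shares of all tested genes were 88.2% and 75.5%. For H3K4me3, 8 members were then called lower in KO2 than Control, beside 24.9% of all tested genes. Read totals are unknown, so the share of any difference that depth sets could not be measured.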

Other observations

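The 4 X-linked ribosomal protein genes, which the rule leaves out, carried both marks in every library. Rpl39 had 723 and 489 bp of H3K27ac in Control, 1438 and 1108 bp in KO1 and 2548 and 3065 bp in KO2. Rpl10 had 1487 and 1478 bp, 1983 and 1395 bp, and 2576 and 2640 bp in the same order. Rps4x had 815 and 740 bp, 772 and 696 bp, and 1229 and 1082 bp, and Rpl36a had 459 and 649 bp, 528 and 771 bp, and 1824 and 1697 bp. All 4 were higher in KO2 than in Control without overlap as deposited, as were 96.9% of the tested autosomal genes. No test was made, and the X-linked genes were not included in the quantile normalization.

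The RefSeq table names 283 autosomal pseudogenes of the members by symbol. Within 2 kb of their bodies H3K27ac met 4.95% and 5.65% in the Control libraries, 6.36% in both KO1 libraries and 10.6% and 10.2% in KO2, and H3K4me3 met 11.3% to 12.7% in all 6. Peaks on the bodies themselves were found in 4 to 8 pseudogenes for H3K27ac and 8 to 14 for H3K4me3, while all 72 members had both marks in every library. These counts include marks of neighbouring genes.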
